A study of Homo sapiens with 4 samples.

Results

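Transcripts of splicing factors and related RNA-binding proteins were followed through depletion with an antibody against N1-methyladenosine (m1A), an RNA mark whose methyl group sits on the pairing edge of adenosine. The members were all genes of the deposited gene table whose symbol begins with the family names SF3A or SF3B, SRSF, SNRP or SNRNP, HNRN or HNRP, PRPF, U2AF, LSM or RBM, followed by the number or letters of the family member. The rule used no measured value, and it took 56 of 6434 genes. Per the labels, HepG2 cells, an established line from a human hepatic tumour, were cultured in DMEM, their RNA was enriched for polyadenylated transcripts, and the same intact mRNA was measured on Affymetrix arrays before depletion (input, n = 2) and after it (supernatant, n = 2). The labels name no genetic change and no drug treatment, and both groups share the cell line, the medium and the poly(A) selection.

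Introns are removed by the spliceosome, which is built from small nuclear RNAs wrapped in Sm or LSM protein rings, from proteins particular to each small nuclear ribonucleoprotein (snRNP), and from non-snRNP factors. SR proteins and hnRNPs bind the pre-mRNA around the exons and tilt the choice of splice sites, often in opposite directions. Several SR and hnRNP genes are known to adjust their own levels through the splicing of their own transcripts.

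All 56 members stood in the block of genes that the study lists with exactly 1 m1A peak (one-peak genes), and none in the block listed without any (non-m1A genes). In the whole table, 81% of genes were one-peak genes, and among genes above the median level 92.9% were. The table lists only these 2 kinds of gene, so the share says nothing about splicing genes with several peaks. The members were bright on the array, with a median input intensity of 758 and a range from 75.5 in PRPF40B to 4497 in SNRPD2. The median member was brighter than 84.7% of all genes. Brightness also depends on the probes, so it does not rank transcripts by number. In bulk RNA, fewer expressing cells and less RNA per cell cannot be told apart. RefSeq lists 133 protein-coding genes with such names (GRCh38.p14), and 55 of them were among the members. That table gives SF3B14 as an older name of SF3B6, HNRNPU-AS1 as one of HNRNPU and PRPF4B as one of PRP4K, the last of which no longer falls under the rule. Each symbol is given here in its deposited form.

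The gene table has 4 columns of linear intensities, which its headers call SUP and INPUT with the letters A and B. The median member had an intensity of 792 in input A, 719 in input B, 746 in supernatant A and 667 in supernatant B. The sources used here do not say what the letters stand for (culture, preparation or hybridisation). Same-lettered columns are called pair A and pair B below, as in the authors' own ratios. The labelled cell type was checked against 17 hepatocyte genes, of which 1 was in the table. All 6 genes listed for other lines that the table could hold were in it. This list was chosen with earlier results of these data known, so their presence is no independent check. Among them VIM, an intermediate filament gene, stood at an input intensity of 6209.9 ± 508 (SD, n = 2). Of 3 leukocyte and 3 fibroblast genes, CD68 (36.2 ± 8.64) and COL1A1 (51.9 ± 2.89) were measured. The gene table names no cell line, and genes it leaves out may still be expressed in the cells. These marker genes cannot decide which line the table holds, and HepG2 is given here on the labels alone.

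The first comparison asked which splicing transcripts the antibody removed. No member passed. With limma on log2 intensities over all 6434 genes, 0 of 56 members had a Benjamini-Hochberg adjusted p under 0.05, where 0.0155% of all genes passed, and the lowest adjusted p of a member was 1.00. Without input A 0.544% of all genes passed and without input B 0.187%, and again 0 members did. At an unadjusted p under 0.05, 1 member was lower, LSM14B, and 0 were higher, against 0.622% and 1.4% of all genes. The median log2 change, supernatant over input, was 0.0029 over the members and 0.04 over all genes. The members' median turned to -0.06 when each column was recentred on the non-m1A genes and to -0.02 after quantile normalization, so its sign depends on the scaling. The median over all genes moved too, to -0.026 after recentring and to 0.00038 after quantile normalization. Recentring shifts every gene by the same amount, also in the medians of smaller groups given below. The members' log2 changes ran from -0.47 in LSM14B to 0.15 in PRPF39.

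Both supernatant values lay below both input values in 7 members (12.5%), against 6.37% of all genes. They lay above both in 2 members (3.57%), against 16.6% of all genes. Among genes above the median level the shares were 12.8% of 47 members against 6.43% of genes for lower, and 4.26% against 13.9% for higher. The 7 were LSM14B, HNRNPAB, PRPF19, SF3B1, LSM6, PRPF18 and SNRPD1, and the 2 were PRPF4 and RBM7. Within the lettered pairs, 14 members were lower in both, 13 higher in both and 29 lower in one and higher in the other, where 14.4% of all genes were lower in both and 40.3% higher in both. These shares were not tested, and they hold for the deposited scaling. The log2 change was below 0 in 26 members there, in 45 after recentring and in 36 after quantile normalization. Its sign was kept under both scalings in 37 of 56 members, 26 lower and 11 higher. RBM7 went to -0.0036 after recentring, and PRPF4 stayed above 0 at 0.05. With 2 columns a group, the smallest two-sided p of an exact test is 0.333, and precision is limited by the number of arrays.

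**Figure D1:**
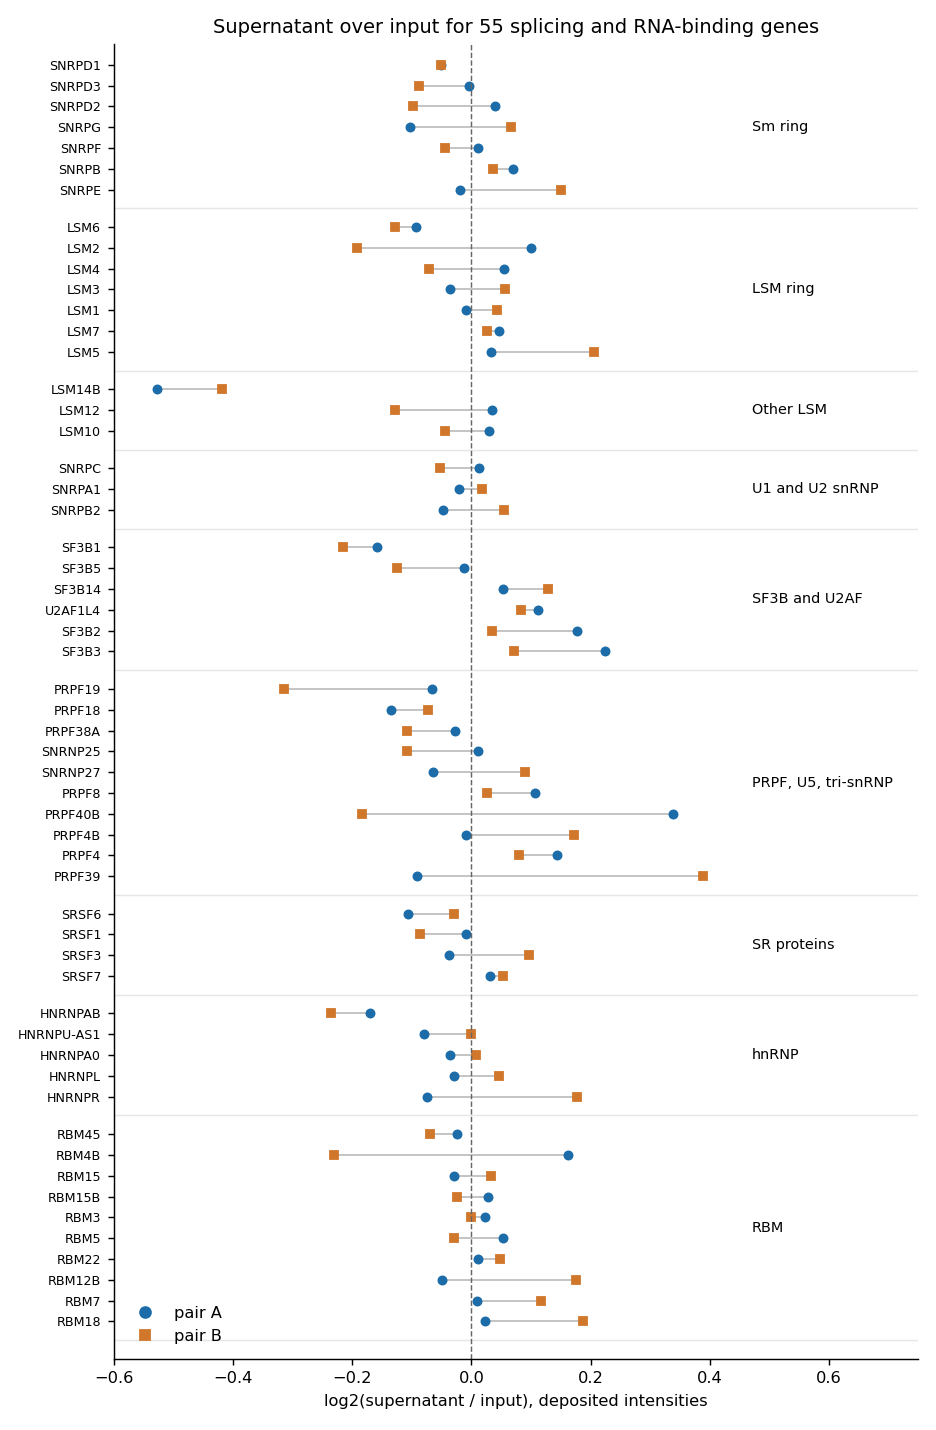
Supernatant over input (log2, horizontal axis) for 55 of the 56 members, grouped by role, with pair A as circles, pair B as squares and a grey line joining them. LSM14B stands apart on the left in both pairs, and in 28 of these members the line crosses 0.

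LSM14B had the lowest supernatant level relative to its input. It encodes an LSM-domain protein related to LSM14A, a component of cytoplasmic P-bodies, where untranslated mRNAs collect. Its intensity was 138 in input A against 95.7 in supernatant A, and 143 in input B against 107 in supernatant B. Both supernatants lay well below both inputs, and the groups did not overlap. The group means were 140.4 ± 3.41 before and 101 ± 7.91 after depletion (SD, n = 2). The log2 change was -0.47 ± 0.10 (SE, limma over all genes, unadjusted p = 0.00708, adjusted p = 1.00). Written as the fraction missing from the supernatant, 1 minus supernatant over input, this was 0.306 (pair A) and 0.252 (pair B). The fraction from the fitted change was 0.28, with a 95% interval of 0.132 to 0.402. Among the 5210 one-peak genes, only 10 had a lower mean ratio. Without supernatant A its unadjusted p rose above 0.05.

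The other 2 LSM genes belong to neither the U6 nor the decay ring, and their values lay near their inputs. LSM10, a subunit of the ring of the U7 snRNP, which trims histone mRNAs, had intensities of 792 in input A against 808 in supernatant A, and 687 in input B against 666 in supernatant B, which overlapped, and a log2 change of -0.01 ± 0.14 (SE). LSM12 was at -0.05 ± 0.11, with -0.0243 (pair A) and 0.0848 (pair B) missing. The negative sign in pair A means that its supernatant was the higher of the pair.

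The U6 ring and the decay ring share most of their LSM subunits: LSM1 marks the cytoplasmic ring that promotes decapping, while the others also sit in the nuclear ring on U6 RNA. All 7 of LSM1 to LSM7 were measured, none passed, and their median log2 change was 0.01 (-0.06 after recentring and -0.02 after quantile normalization). LSM6 had intensities of 556 in input A against 521 in supernatant A, and 545 in input B against 498 in supernatant B, lower in both supernatants by a small margin, and a log2 change of -0.11 ± 0.09 (SE). LSM5 was highest of the ring at 0.12 ± 0.12, with intensities of 997 in input A against 1020.1 in supernatant A, and 851 in input B against 982 in supernatant B. Its input B stood lowest of the 4, and supernatant B lay between the inputs. LSM2 went opposite ways in the pairs, with -0.0718 (pair A) and 0.125 (pair B) missing and a change of -0.05 ± 0.12. So did LSM4, the brightest of the family, at 2755 in input A against 2862 in supernatant A, and 3182 in input B against 3030.0 in supernatant B, with a change of -0.01 ± 0.11. LSM1, LSM3 and LSM7 had log2 changes of 0.02, 0.01 and 0.04.

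The Sm ring is the core shared by the U1, U2, U4 and U5 snRNPs, and all 7 of its genes were in the table. None passed, and the log2 changes ran from -0.05 in SNRPD1 to 0.07 in SNRPE, with a median of -0.02 (-0.09 after recentring and -0.03 after quantile normalization). SNRPD1 intensities were 847 in input A against 818 in supernatant A, and 849 in input B against 819.6 in supernatant B. The groups did not overlap, but the gap was small, with 0.0344 missing (pair A) and 0.0347 (pair B) and a 95% interval of -0.128 to 0.174 for the fraction. SNRPE, by contrast, had 1085 in input A against 1070.0 in supernatant A, and 965 in input B against 1071 in supernatant B, with both supernatants inside the range of the inputs. SNRPB stood at 3324 in input A against 3490.0 in supernatant A, and 3121 in input B against 3199 in supernatant B, with a log2 change of 0.05 ± 0.10 (SE). Its protein is nearly identical to that of SNRPN, and how the probes divide signal between them is not known here. SNRPD2, the brightest member, had 4366 in input A against 4487 in supernatant A, and 4628 in input B against 4325 in supernatant B, with one supernatant above and one below its paired input, and a change of -0.03 ± 0.09. SNRPD3, SNRPF and SNRPG had log2 changes of -0.05, -0.02 and -0.02.

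Of the proteins particular to one snRNP, those of U1 and U2 stayed near 0. SNRPC, which helps U1 grip the 5′ splice site, had a log2 change of -0.02 ± 0.09 (SE). SNRPA1 and SNRPB2, which together bind a stem of U2 RNA, were at -0.0011 and 0.0041 ± 0.09. Each of these 3 was lower in one pair and higher in the other.

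The SF3B complex clamps U2 onto the branch site, the adenosine that starts the splicing reaction. Its measured subunits went apart in size and sign, though none passed. SF3B1, the large scaffold subunit and a recurrent site of mutation in myeloid disease, had intensities of 791 in input A against 709 in supernatant A, and 777 in input B against 669 in supernatant B. Both supernatants lay below both inputs, with 0.103 (pair A) and 0.139 (pair B) missing and a log2 change of -0.19 ± 0.09 (SE). SF3B5, a small subunit, was at -0.07 ± 0.10, with overlapping groups. SF3B14, which contacts the branch adenosine, had 2579 in input A against 2676 in supernatant A, and 2312 in input B against 2526 in supernatant B, with a change of 0.09 ± 0.10. SF3B3 was at 0.15 ± 0.15, with 196 in input A against 229 in supernatant A, and 246 in input B against 258 in supernatant B, and SF3B2 at 0.11 ± 0.14. In SF3B14, SF3B2 and SF3B3 the supernatant was the higher of each pair, while the difference between the letters was larger than that between supernatant and input. U2AF1L4, a relative of the U2AF subunit that reads the 3′ splice site, had 118 in input A against 127 in supernatant A, and 146 in input B against 155 in supernatant B, with a change of 0.10 ± 0.16. Column B was the higher in both groups. The 6 genes had a median log2 change of 0.09 (0.03 after recentring and 0.07 after quantile normalization).

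**Figure D2:**
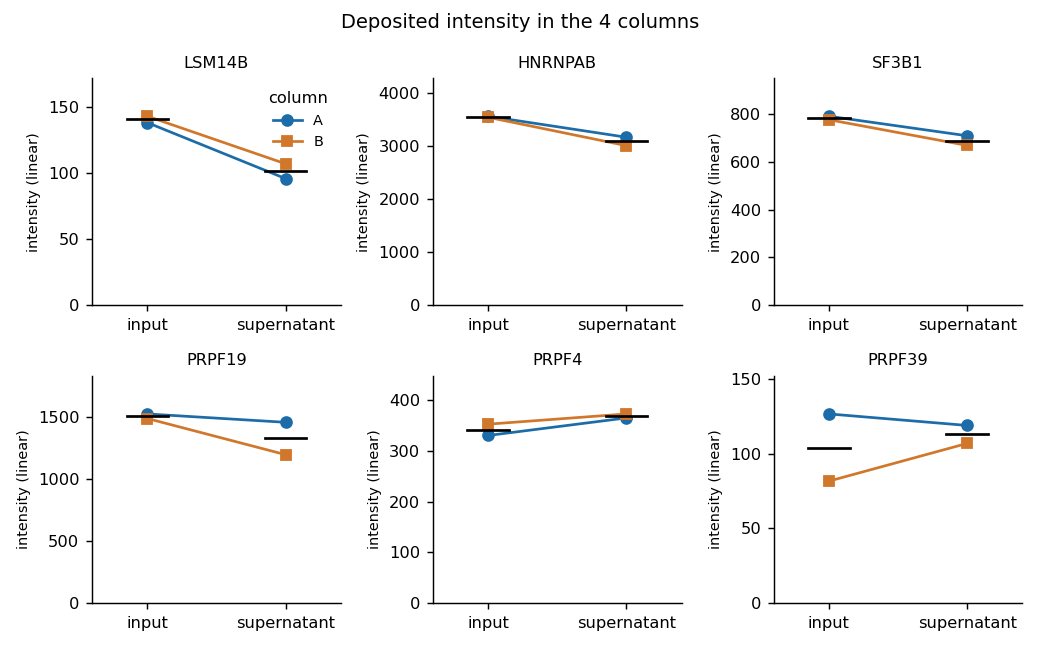
Deposited intensity (linear, vertical axis from 0) of 6 members in input and supernatant, with column A as circles, column B as squares and black bars for the group means (n = 2). LSM14B, HNRNPAB, SF3B1 and PRPF19 were lower in both supernatants, PRPF4 was higher in both, and PRPF39 differed mainly between its inputs (127 and 81.7).

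The PRPF genes and the U5, tri-snRNP and minor spliceosome proteins ranged from -0.19 in PRPF19 to 0.15 in PRPF39, with a median of 0.07 over 11 genes (-0.00033 after recentring and 0.01 after quantile normalization). PRPF19, the ubiquitin ligase at the core of the spliceosomal complex that bears its name, had intensities of 1527 in input A against 1459.7 in supernatant A, and 1491 in input B against 1198 in supernatant B. Both supernatants were below both inputs, but supernatant B much more so, with 0.0444 (pair A) and 0.196 (pair B) missing and a log2 change of -0.19 ± 0.13 (SE). PRPF18, a factor of the second splicing step, had 233 in input A against 212 in supernatant A, and 216 in input B against 205 in supernatant B, a small gap with no overlap, and a change of -0.10 ± 0.09. PRPF38A, which joins before activation, was at -0.07 ± 0.10.

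PRPF4, of the U4/U6 snRNP, was the only gene of this group with both supernatants above both inputs, at 330.4 in input A against 365 in supernatant A, and 353 in input B against 373 in supernatant B, with a log2 change of 0.11 ± 0.09 (SE). PRPF8, the large U5 scaffold at the catalytic centre, had 863 in input A against 929.9 in supernatant A, and 1105 in input B against 1125 in supernatant B, with a change of 0.07 ± 0.17. Column B exceeded column A in both groups by far more than supernatant exceeded input. PRPF39, related to a yeast U1 protein, had 127 in input A against 119 in supernatant A, and 81.7 in input B against 107 in supernatant B. Its high log2 change of 0.15 ± 0.23 went with a low input B, and the fraction missing was 0.0609 (pair A) and -0.31 (pair B). Without input A its log2 change was 0.47 and without input B -0.17. PRPF40B was the dimmest member at 59.9 in input A against 75.7 in supernatant A, and 91.1 in input B against 80.2 in supernatant B, with a change of 0.08 ± 0.22 and input A the lowest of the 4. PRPF4B, a kinase of splicing factors, was at 0.08 ± 0.18. SNRNP27 of the tri-snRNP and SNRNP25 of the minor spliceosome were at 0.01 ± 0.09 and -0.05 ± 0.13.

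Of the SR proteins, which bind exonic enhancers, SRSF1, SRSF3, SRSF6 and SRSF7 were measured, and none passed. SRSF6 had intensities of 499 in input A against 464 in supernatant A, and 444 in input B against 434 in supernatant B, with a log2 change of -0.07 ± 0.11 (SE). SRSF7, the brightest, had 2039.8 in input A against 2084 in supernatant A, and 1858 in input B against 1927 in supernatant B, with a log2 change of 0.04 ± 0.10. SRSF1 had 939 in input A against 934 in supernatant A, and 846 in input B against 797 in supernatant B, with a log2 change of -0.05 ± 0.12, and SRSF3 was at 0.03 ± 0.14. Groups overlapped in all 4 genes, and in all 4 both B columns lay below both A columns. Their median log2 change was -0.01 (-0.08 after recentring and -0.03 after quantile normalization).

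Among the hnRNP genes, HNRNPAB had the lowest supernatant level relative to input. HNRNPAB encodes an abundant relative of the A/B-type hnRNPs that coat nascent RNA. Its intensities of 3562 in input A against 3166 in supernatant A, and 3542 in input B against 3007 in supernatant B did not overlap, and the 2 inputs were nearly equal. With 0.111 (pair A) and 0.151 (pair B) missing, the log2 change was -0.20 ± 0.09 (SE, limma unadjusted p = 0.0751, adjusted p = 1.00). The fraction from the fit was 0.131, with a 95% interval of -0.0217 to 0.261, which holds 0. HNRNPAB was at an unadjusted p under 0.05 with the letter as a replicate block, with an added offset of 32, with a trended prior and after recentring, but its adjusted p passed under none of these. HNRNPR went opposite ways, at 2215 in input A against 2104 in supernatant A, and 1754 in input B against 1983 in supernatant B, with a change of 0.05 ± 0.14. The gene listed as HNRNPU-AS1 had 216 in input A against 204 in supernatant A, and 169 in input B against 168 in supernatant B, with a change of -0.04 ± 0.17, with both B columns far below the A columns. Which strand its probes read, that of HNRNPU or the antisense one, is not stated. HNRNPL, which binds CA repeats, and HNRNPA0 were at 0.01 ± 0.09 and -0.01 ± 0.09. The median over the 5 genes was -0.01 (-0.08 after recentring and -0.04 after quantile normalization).

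The 10 RBM genes, named for their RNA-binding motifs, lay between -0.05 in RBM45 and 0.10 in RBM18 on the log2 scale, and none passed. RBM7, which brings nuclear RNAs to the exosome, had 330.0 in input A against 332 in supernatant A, and 309.9 in input B against 336 in supernatant B. Both supernatants were above both inputs, narrowly, and the change was 0.06 ± 0.09 (SE). RBM3, a protein induced by cold, was the brightest at 1094 in input A against 1111 in supernatant A, and 1163 in input B against 1162 in supernatant B, with a log2 change of 0.01 ± 0.09. RBM18 had 142 in input A against 144 in supernatant A, and 119 in input B against 136 in supernatant B, with a log2 change of 0.10 ± 0.12, and RBM45 205 in input A against 201 in supernatant A, and 186 in input B against 178 in supernatant B, with a log2 change of -0.05 ± 0.11. RBM15 and RBM15B, adaptors of the writer complex for another mark, N6-methyladenosine, were at 0.0013 ± 0.12 and 0.0016 ± 0.10. RBM22, which contacts the catalytic RNA core, was at 0.03 ± 0.11, and RBM5, a regulator of exon skipping, at 0.01 ± 0.10. RBM4B and RBM12B were at -0.03 ± 0.16 and 0.06 ± 0.18, with the pairs on opposite sides of 0 in both. The median was 0.01 (-0.06 after recentring and -0.01 after quantile normalization).

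The second comparison asked what fraction of each splicing transcript was methylated. The authors' deposited table has a median fraction of 0.225 over the 56 members, with quartiles of 0.19 and 0.25, and 0.21 over the 5210 one-peak genes, with quartiles of 0.17 and 0.23. The highest deposited fractions were 0.44 in LSM14B, 0.33 in HNRNPAB, 0.32 in SF3B1 and PRPF19, and 0.28 in PRPF18. LSM6 was also listed at 0.28. The lowest were 0.13 in PRPF39, 0.14 in SF3B3 and 0.16 in LSM5. A deposited fraction of at least 0.3, a limit chosen after the data were seen, was listed for 4 members (7.14%) and for 2.94% of one-peak genes.

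**Figure D3:**
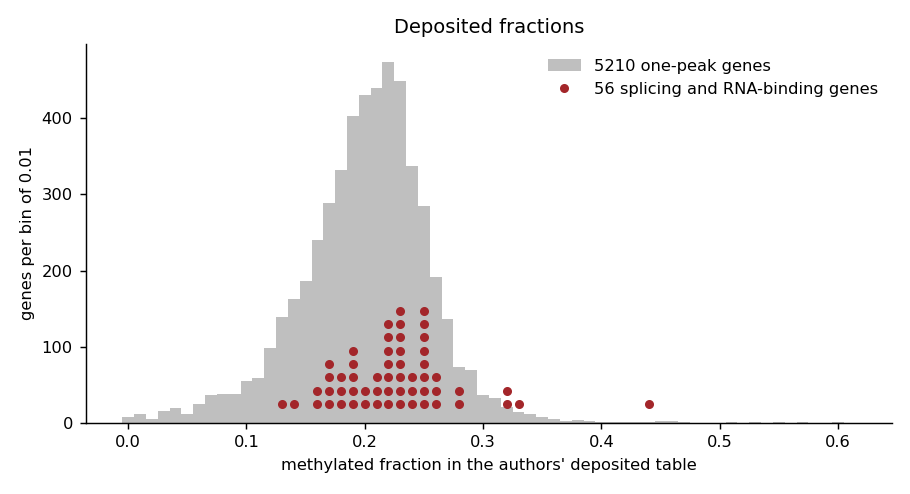
Methylated fraction in the authors' deposited table (horizontal axis), as a histogram of all 5210 one-peak genes in bins of 0.01 and as 1 point for each of the 56 members (the height of a point only stacks equal values). Most members lie inside the bulk of the histogram, and LSM14B stands alone at 0.44.

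These fractions are 1 minus the mean of the 2 supernatant/input ratios after division by a constant of 1.29, which is the average over non-m1A genes. Without the divisor, the median fraction over the members was -0.00239, with 0.00593 (pair A) and -0.00869 (pair B), and 30 members (53.6%) fell below 0, against 68.4% of one-peak genes. A fraction below 0 means more signal in the supernatant than in the input. SNRPD1 shows the size of the step. It is listed at 0.25, while the 2 pairs gave 0.0344 and 0.0347 directly. LSM14B is listed at 0.44 and gave 0.306 and 0.252, and SF3B1 is listed at 0.32 and gave 0.103 and 0.139. PRPF39, listed at 0.13, gave 0.0609 and -0.31. The divisor itself differed between the pairs, at 1.16 (pair A) and 1.43 (pair B). The median ratio of the 1224 non-m1A genes was 1.05, below their mean of 1.29. Over the 694 of them at least as bright as the dimmest one-peak gene, the mean was also 1.05.

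The pairs often disagreed on single members. The fraction missing differed by a median of 0.0556 between pair A and pair B, as against 0.0765 in all one-peak genes. The difference was large in PRPF40B (-0.264 and 0.12), PRPF39, RBM4B (-0.119 and 0.148) and LSM2. It was smaller in SNRPD1, SF3B1 and HNRNPAB, at 0.000382, 0.0353 and 0.0398, and near the median in LSM14B, at 0.0549. Small differences also stood in members without low supernatants, such as LSM7 (0.0151), SRSF7 (0.0160) and RBM3 (0.0165).

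**Figure D4:**
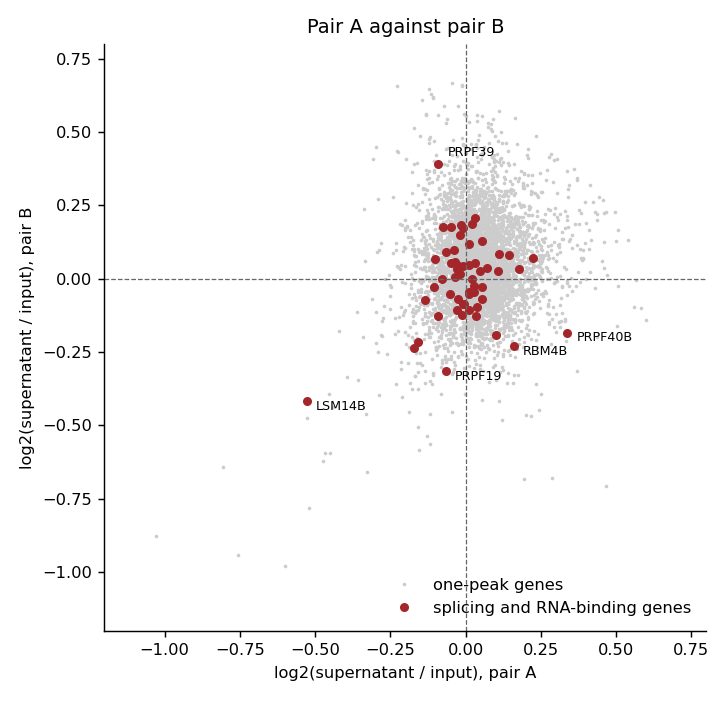
Supernatant over input (log2) in pair A (horizontal axis) and pair B (vertical axis) for the 5210 one-peak genes in grey and the 56 members in red. LSM14B lies low in both pairs, whereas PRPF39 and PRPF40B are far from 0 on opposite sides in the pairs.

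Most members differed more between the column letters than between supernatant and input. The mean log2 difference of B over A was larger in size than the log2 change of supernatant over input in 45 of 56 members (80.4%), against 69.8% of all genes. The median size in the members was 0.12 for the letter and 0.05 for depletion. Over all genes these medians were 0.13 and 0.07, so the members' letter difference was not larger than that of all genes. The direction of the letter difference was the same in input and supernatant in 49 members (87.5%), against 73.7% of all genes, and was below 0 in both for 32 members (57.1% against 38.6%). No test of the letters was made. All 4 SR genes were lower in B, with SRSF3 at a log2 input difference of -0.30 and a supernatant difference of -0.17. PRPF39, PRPF4B and HNRNPU-AS1 were also lower in B, with input differences of -0.63, -0.41 and -0.36. PRPF8, SF3B2 and SF3B3 were higher in B, with input differences of 0.36, 0.31 and 0.33 and supernatant differences of 0.28, 0.17 and 0.17, whereas SF3B1 was slightly lower in B, at -0.03 and -0.08. A fit with the letter as a replicate block left the log2 changes as they were, and no member passed. The SE fell from 0.163 to 0.068 in U2AF1L4, from 0.149 to 0.078 in SF3B3 and from 0.124 to 0.070 in SRSF1. It fell less in HNRNPAB, from 0.088 to 0.070.

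**Figure D5:**
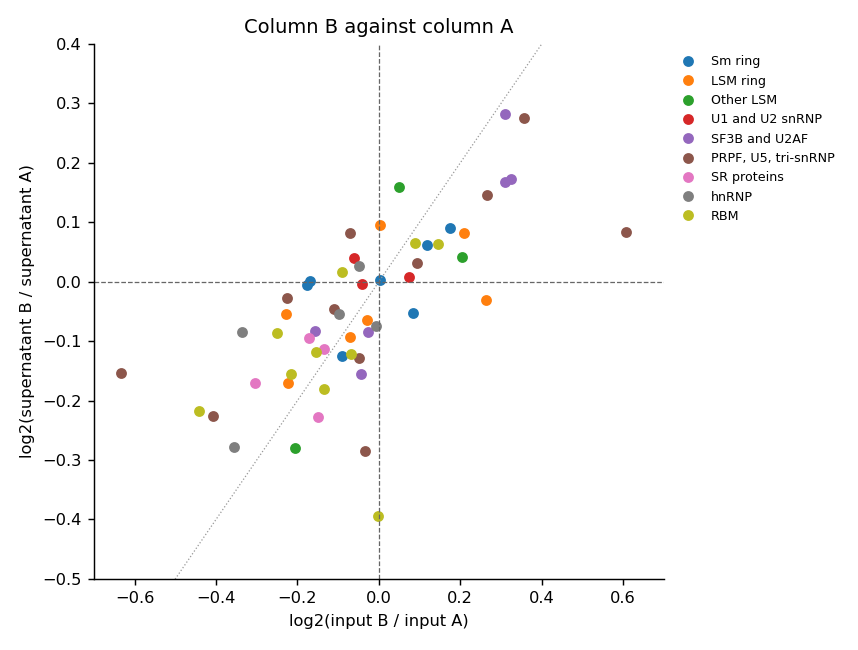
Column B over column A (log2) in the inputs (horizontal axis) and in the supernatants (vertical axis) for the 56 members, coloured by role, with the dotted line marking equal differences. In 49 members both differences have the same sign, with the SR genes at the lower left and PRPF8, SF3B2, SF3B3 and U2AF1L4 at the upper right.

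The rest of the splicing machinery was read from 7 lists of genes outside these families. They hold 154 symbols, some of which are older and newer names of the same gene. Of these symbols 65 were in the table, 59 as one-peak genes and 6 as non-m1A genes. None passed in either direction, and the median log2 change was 0.03. Both supernatants lay below both inputs in 9 of the 65 (13.8%) and above both in 13 (20.0%), against 6.37% and 16.6% of all genes. Within the lettered pairs, 10 were lower in both, 25 higher in both and 30 mixed. Apart from these counts, the genes named are the 2 with the largest moderated statistic by size in each list. At a limma unadjusted p under 0.05, 1 of the 65 was higher and 0 were lower, against 1.4% and 0.622% of all genes. The 1 was AQR, a helicase gene of the intron-binding complex. AQR had intensities of 68.3 in input A against 84.4 in supernatant A, and 70.1 in input B against 92.9 in supernatant B. Its log2 change was 0.36 ± 0.10 (SE). AQR stands on both the list of helicases and large U5 proteins (9 measured, median 0.0025) and that of PRPF19 complex and step proteins (12 measured, median 0.04). EFTUD2, the U5 GTPase on the first list, was at 0.14 ± 0.12, and BCAS2 on the second at 0.15 ± 0.09. Of 8 measured proteins that attend U1, U2 or the tri-snRNP (median 0.01), PUF60, a U2AF-like factor, had 1679 in input A against 2017 in supernatant A, and 1785 in input B against 1967 in supernatant B, with no overlap, and a change of 0.20 ± 0.09, and TXNL4A was at 0.04 ± 0.09. Of 8 SR-related and exon junction genes (median 0.03), MAGOH, a core exon junction protein, had 515 in input A against 407 in supernatant A, and 452 in input B against 393 in supernatant B, without overlap, and a change of -0.27 ± 0.11. Its paralog MAGOHB was at 0.27 ± 0.14, with a mean input intensity of 90.0 against 483 in MAGOH. How far the probes of one paralog also read the other was not tested. Of 14 other splicing regulators (median 0.05), QKI and TIAL1 were at 0.13 ± 0.09 and 0.12 ± 0.09. Of 13 genes that assemble Sm rings (median 0.02), GEMIN2 and GEMIN7 were at 0.29 ± 0.15 and 0.17 ± 0.10, and of 2 minor spliceosome genes, ZMAT5 and the dim RNPC3 were at 0.17 ± 0.09 and 0.40 ± 0.31 (all SE).

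The base composition around the start site was close to that of other genes, though no test was made. In RefSeq promoter sequence of GRCh38.p14, found for 49 of 56 members, the first 50 transcribed bases had a median GC content of 66%, with quartiles of 60% and 72%. The median was 68% in 4330 one-peak genes and 66% in 981 non-m1A genes. Where the m1A peak lies in each transcript was not analysed here.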

How the data were processed

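Poly(A)-selected RNA of HepG2 cells was measured on 4 arrays, 2 of input and 2 of supernatant, grouped by sample title. Nothing in the labels says that replicates were separate cultures, so the p-values reflect only the scatter of these samples, possibly technical. RMA is the only tool in the submitters' processing notes. The gene table holds the authors' deposited intensities on a linear scale, and the sources used here do not say how they were made. The authors' deposited ratio and fraction stand beside them, and the one-peak ratio, recomputed from the intensities, differed by at most 0.00586. A second table of deposited log2 values lists 49395 probe sets without gene names, and was not used for the members, because no table pairing probe sets with genes was used here. The planned test on it was therefore not run. Column letters are no replicate numbers of the labels, so columns were assigned to groups only.

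Members and lists were chosen with earlier results of these data known. An unpaired limma model (limma 3.58.1, R 4.3.3, moderated by eBayes) was fitted to log2 intensities of all 6434 genes, with no pseudocount or filter, with Benjamini-Hochberg adjustment over all of them and a threshold of 0.05. Intervals are 95% intervals from limma's moderated SE. Errors are SD or SE as named. Full values were given by a rule: up to 3 members per family by size of the moderated statistic, the brightest of each family, and the 5 highest and 3 lowest deposited fractions, 26 genes in all. The other members, except 1 that is counted but not reported here by name, were added to complete each role, and so were values of LSM10, PRPF8 and PRPF40B, chosen after they were seen. Python 3.11.15, pandas 2.3.3, NumPy 2.4.6, SciPy 1.17.1 and matplotlib 3.10.9 were used. Alternatives covered the replicate block, level filters, an added offset of 32, a trended prior, recentring, quantile normalization, each column left out and other divisors.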

Additional observations from a re-analysis of the deposited data

How the results depend on the processing

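Under all 11 other settings of the fit, 0 members and 0 of the other splicing genes passed limma's adjusted p of 0.05, and the lowest adjusted p of a member was 0.338, in LSM14B without input A. Over all genes, 1 was called in the reported fit, 35 (0.544%) without input A and 12 (0.187%) without input B, and 0 or 1 under the other 9. Of the 26 genes named by rule, 10 kept their sign under every setting that gave them a value, LSM14B, HNRNPAB, PRPF19, SF3B1, LSM6, PRPF18, SNRPD1, SF3B14, PRPF4 and LSM5, and 16 changed it under at least 1. LSM14B ranged from -0.55 to -0.37 on the log2 scale and HNRNPAB from -0.27 to -0.17. A kept sign could still lie near 0: PRPF19 went to -0.05 without supernatant B, and LSM5 to 0.0053 and SF3B14 to 0.01 without input B. HNRNPAB had an unadjusted p under 0.05 with the offset, the trended prior and recentring too, and SF3B1 with recentring. Without supernatant A no member did, without input A PRPF39 was higher beside LSM14B, and without input B PRPF40B was. The members' median log2 change of 0.0029 became -0.064 after recentring on the non-m1A genes and -0.024 after quantile normalization. The median over all genes became -0.026 and 0.00038 under these 2 scalings. With 1 column left out the members' median lay between -0.026 and 0.020, lowest without input B and highest without input A. Without LSM14B, an alternative added after seeing the data, it was 0.0041. The members' median fraction of 0.225 became -0.00239 with no divisor, -0.0020 from group means of log2 values, 0.0480 with the median non-m1A ratio as divisor, 0.0465 with the mean ratio of bright non-m1A genes, and 0.14 to 0.295 with 1 pair left out. With the letter as a replicate block, 0 members passed, the lowest adjusted p was 0.559, and LSM14B and HNRNPAB were lower at an unadjusted p under 0.05. Same-lettered columns deviated together, with a correlation of deviations of 0.687 over the members and 0.451 over all genes, but the labels do not say that letters or numbers pair the samples.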
